A study of Mus musculus with 6 samples.

Results

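The genes described here encode the subunits of the mitochondrial respiratory chain and of ATP synthase. They were compared between livers of wild-type mice and of mice lacking Creb3l3, all killed after a 24 h fast. Members were chosen by symbol alone: names of the forms Nduf, Sdh, Uqcr, Cox4 to Cox8 and Atp5 took 112 of the 45281 probes on the array, or 76 of its 30869 gene symbols. Of these symbols 73 name subunits, carried by 107 probes. Complex I has 34 of them, complex II 4, complex III 7, complex IV 15 and complex V 13. The other 3 symbols are not structural subunits and were left out of the counts by complex: Cox4nb, now named Emc8, is part of an endoplasmic reticulum membrane complex, Ndufa12l, now Ndufaf2, is a complex I assembly factor, and Cox7a2l is a factor of respiratory supercomplexes.

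The 6 livers came from male C57BL/6 littermates kept on normal chow, 3 of the wild type and 3 of the knockout, each with 1 Illumina WG-6 bead array. The labels give no age and call the knockout mice only deficient, so the allele, and whether the loss is restricted to a cell type, stay unnamed here. Creb3l3, also called CREBH, is a transcription factor of the CREB family enriched in liver, made as a membrane protein of the endoplasmic reticulum and released by cleavage.

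The chain is the path by which food-derived electrons reach oxygen. Complex I takes them from NADH and complex II from succinate, complex III passes them from ubiquinol to cytochrome c, and complex IV hands them to oxygen. Complexes I, III and IV pump protons, and complex V, the ATP synthase, uses the return flow to make ATP. A fasting liver burns fatty acids, and the NADH and FADH2 of that oxidation enter here. Most subunits are nuclear genes read by factors such as NRF1 and the ETS-family protein GABP, while a small set is encoded in mitochondrial DNA.

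The arrays differed in brightness. Mean signal was 252 to 219 on the wild-type arrays, 149 on knockout array 1 and 246 on knockout array 2. Knockout array 3 was nearly without signal, at 87.3, and detected 4302 probes where the others detected 11846 to 16224. Single genes were therefore read from the 5 arrays without it, and values from all 6 arrays are set beside many of them. Creb3l3 itself fell by 2.32 on the log2 scale (SE 0.15, limma adjusted p = 0.00271, 3 against 2 arrays), the direction its label names. Its call was lost with all 6 arrays (-2.72, adjusted p = 0.574) and with each array scaled by its median (-2.97, adjusted p = 0.175). Of 10 hepatocyte markers 9 were detected well enough to test, with a median log2 difference of 0.00 and 0 called by limma.

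Promoters were read for motifs because the nuclear subunits are known for shared regulators and because Creb3l3 belongs to a family that binds cyclic AMP response elements. RefSeq windows of 250 bases upstream of the start were found for 59 of the 73 subunit genes and for 27025 genes in all, build GRCm38.p6, searched on both strands. The NRF1 motif, GCGCA and GCGC parted by any 1 base, stood in 12 subunit genes (20.3%) against 4.23% of all genes, and the ETS motif CCGGAAG in 12 (20.3%) against 7.83%. Either motif was present in 21 (35.6%) against 11.3%. The palindromic cyclic AMP response element TGACGTCA was present in 4 (6.78%) against 1.77%, and the related letters TGACGTG in 0 of 59 against 1.85%. None of these motifs shares letters with another inside the windows printed here. The 4 subunit promoters with the cyclic AMP response element are shown with it in capitals, 5′ to 3′ on the gene's strand, and Cox6a1 is added because it holds 2 NRF1 motifs and 1 ETS motif. In Ndufa11 the second run in capitals is an NRF1 motif, and in Cox6a1 the first 2 runs are NRF1 motifs and the last is the ETS motif on the other strand.
Ndufa10, complex I, chr1:92473759-92474008, minus strand: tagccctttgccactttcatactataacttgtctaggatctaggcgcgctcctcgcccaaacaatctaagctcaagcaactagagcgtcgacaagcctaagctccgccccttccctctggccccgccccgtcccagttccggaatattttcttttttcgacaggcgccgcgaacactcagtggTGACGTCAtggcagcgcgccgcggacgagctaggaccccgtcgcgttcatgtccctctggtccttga
Ndufa11, complex I, chr17:56717512-56717761, plus strand: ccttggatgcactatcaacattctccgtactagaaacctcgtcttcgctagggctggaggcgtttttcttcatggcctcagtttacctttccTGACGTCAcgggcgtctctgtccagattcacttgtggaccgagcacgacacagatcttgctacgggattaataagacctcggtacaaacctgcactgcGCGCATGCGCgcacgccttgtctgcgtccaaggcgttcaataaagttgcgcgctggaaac
Ndufb2, complex I, chr6:39592315-39592564, plus strand: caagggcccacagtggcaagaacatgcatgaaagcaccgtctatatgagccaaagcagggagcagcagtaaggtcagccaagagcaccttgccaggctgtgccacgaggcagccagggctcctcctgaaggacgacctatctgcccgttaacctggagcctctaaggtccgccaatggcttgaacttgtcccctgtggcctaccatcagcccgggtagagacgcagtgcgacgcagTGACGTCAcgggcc
Uqcrfs1, complex III, chr13:30545317-30545566, minus strand: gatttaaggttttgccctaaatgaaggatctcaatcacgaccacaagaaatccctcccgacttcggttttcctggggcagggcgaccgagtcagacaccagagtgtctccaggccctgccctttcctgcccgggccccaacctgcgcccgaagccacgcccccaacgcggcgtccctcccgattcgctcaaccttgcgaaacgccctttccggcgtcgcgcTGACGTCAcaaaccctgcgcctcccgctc
Cox6a1, complex IV, chr5:115348959-115349208, minus strand: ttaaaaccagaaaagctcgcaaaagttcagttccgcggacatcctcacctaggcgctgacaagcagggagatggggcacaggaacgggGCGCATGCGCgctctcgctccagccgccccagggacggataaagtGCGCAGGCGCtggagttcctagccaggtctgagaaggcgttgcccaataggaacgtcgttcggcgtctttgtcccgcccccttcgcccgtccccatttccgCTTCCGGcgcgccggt

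The element began 14 bases upstream of the start in Ndufb2, 29 in Uqcrfs1, 67 in Ndufa10 and 158 in Ndufa11. Over 5 arrays the tested genes among these showed no shared direction. Over all 6 arrays each lay above 0, Ndufa10 at 0.23, Ndufa11 at 0.25 and Ndufb2 at 0.12. In each, the highest value was that of knockout array 3, which was nearly without signal. Knockout array 2 lay below the wild-type mean in each. A link between the element and expression was not tested. The values that follow are those of the 5 arrays. Ndufa10 and Ndufa11, both accessory subunits of complex I, had log2 differences of 0.05 ± 0.16 and 0.13 ± 0.18 (SE), and Ndufb2, another accessory subunit, one of -0.30 ± 0.15 (limma adjusted p = 0.924, 0.787 and 0.467). Uqcrfs1, the Rieske iron-sulfur protein of complex III, was not detected well enough to test. A match is a description of letters and not of binding.

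Respiratory chain transcripts were among the brighter signals of these livers. A probe counts as detected on an array when its deposited detection p is under 0.05. Of the 112 member probes, 91 to 94 were detected on each array other than knockout array 3, and 68 (60.7%) on that array, where 9.50% of all probes were. On every one of the 6 arrays 67 member probes were detected (59.8%), against 6.39% of all probes, and 12 were detected on none. By complex, the probes detected on all arrays were 36 of 51 in complex I, 3 of 8 in II, 4 of 8 in III, 8 of 20 in IV and 14 of 20 in V.

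Before any normalization, the deposited signals of the subunits followed the brightness of the arrays. Taking 1 probe per gene, the one with the highest mean, the median signal of the 64 tested subunit genes was 2277, 1841 and 1773 on wild-type arrays 1 to 3. It was 696, 2041 and 110 on knockout arrays 1 to 3. Knockout array 2 thus lay between the wild-type arrays, while arrays 1 and 3 lay far below all of them. Over all 10055 tested genes the medians were 173, 152 and 153, then 116, 176 and 85.6. A whole-array loss of brightness and a loss of these transcripts cannot be told apart from deposited signals, and everything that follows is relative to the other probes of the same array after quantile normalization.

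**Figure D1:**
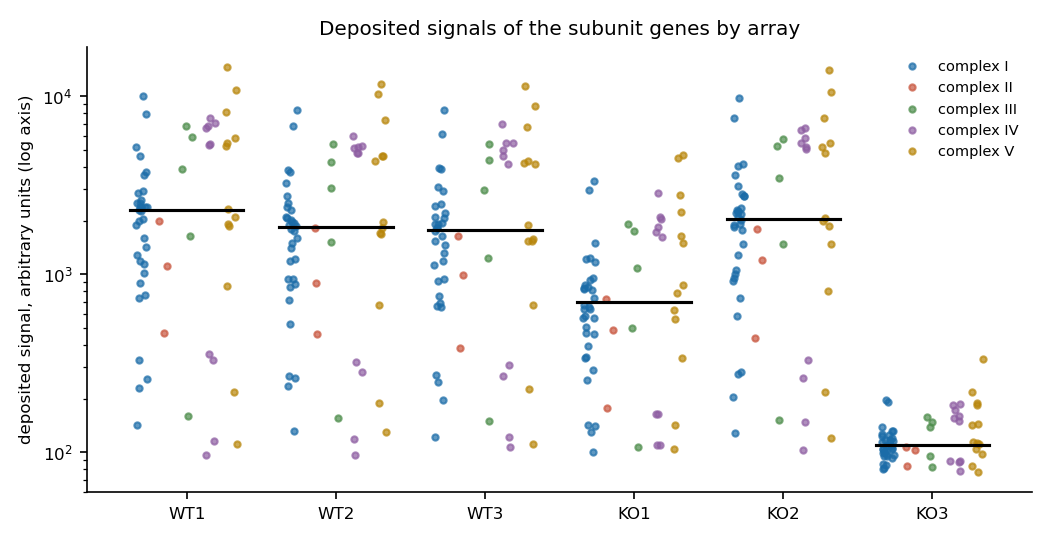
Deposited signal, on a log axis, of each tested subunit gene on each of the 6 arrays. Points are genes, coloured by complex, and the black line is the median over all of them; knockout array 1 (subunit median 696) and knockout array 3 (110) lie below the other arrays (1773 to 2277).

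After normalization no subunit gene passed the test in either direction. limma called 0 of 92 tested member probes at an adjusted p under 0.05, where it called 49 of 14345 probes in all (0.342%), 9 higher and 40 lower in the knockout. At an unadjusted p under 0.05 the member probes numbered 6, against 1741 of all tested probes (12.1%). Over all 6 arrays limma again called 0 of 92, against 0 of 14494 (0.0%), with 2 member probes at an unadjusted p under 0.05 against 558 of all (3.85%). Without knockout array 2, so with the dim knockout array 1 alone against the wild type and a spread taken from the wild-type arrays only, 5 of 92 member probes passed, which compares that array and has no knockout replicate: Cox6b2 and a dim probe of Sdhb were higher (log2 differences 1.08 and 0.63), and Ndufb11, Uqcrb and a dim probe of Ndufc2 were lower (-0.97, -0.63 and -1.26). In that comparison 16.7% of all tested probes were called, 787 higher and 1447 lower. Weighting all 6 arrays by their quality called 6 of 92, the same 5 and a dim probe of Atp5f1 that was lower, against 19.5% of all probes. The weights were 3.07, 0.417 and 0.0335 for knockout arrays 1, 2 and 3, so this comparison again rests mostly on knockout array 1.

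The size of the differences was small and narrowly bounded. Of the 64 subunit genes, 48 differed by less than 0.2 on the log2 scale. Only Ndufb11 and Cox6b2 differed by more than 0.5 (3.12%, against 10.5% of all tested genes), and 0 by more than 1, against 1.17%. The 95% interval lay inside a 2-fold change either way for 62 of 64 genes, the exceptions being the same pair, against 8815 of 10055 tested genes (87.7%). For 47 of 64 it lay inside 1.5-fold. The median absolute difference was 0.0959 for the subunits and 0.186 for all genes, and 0.155 for the top quartile of tested genes by brightness. The wild-type replicates of the subunits also lay closer together, with a median SD of 0.0831 against 0.140 and 0.109. The top quartile was still dimmer than the subunits, with a median of the mean log2 signals of 9.26 against 10.68, so it does not match them in brightness. These bounds hold after quantile normalization: with each array scaled by its median instead, 0 of 64 intervals lay inside 2-fold, and with all 6 arrays quantile normalized 45 of 64 did.

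**Figure D2:**
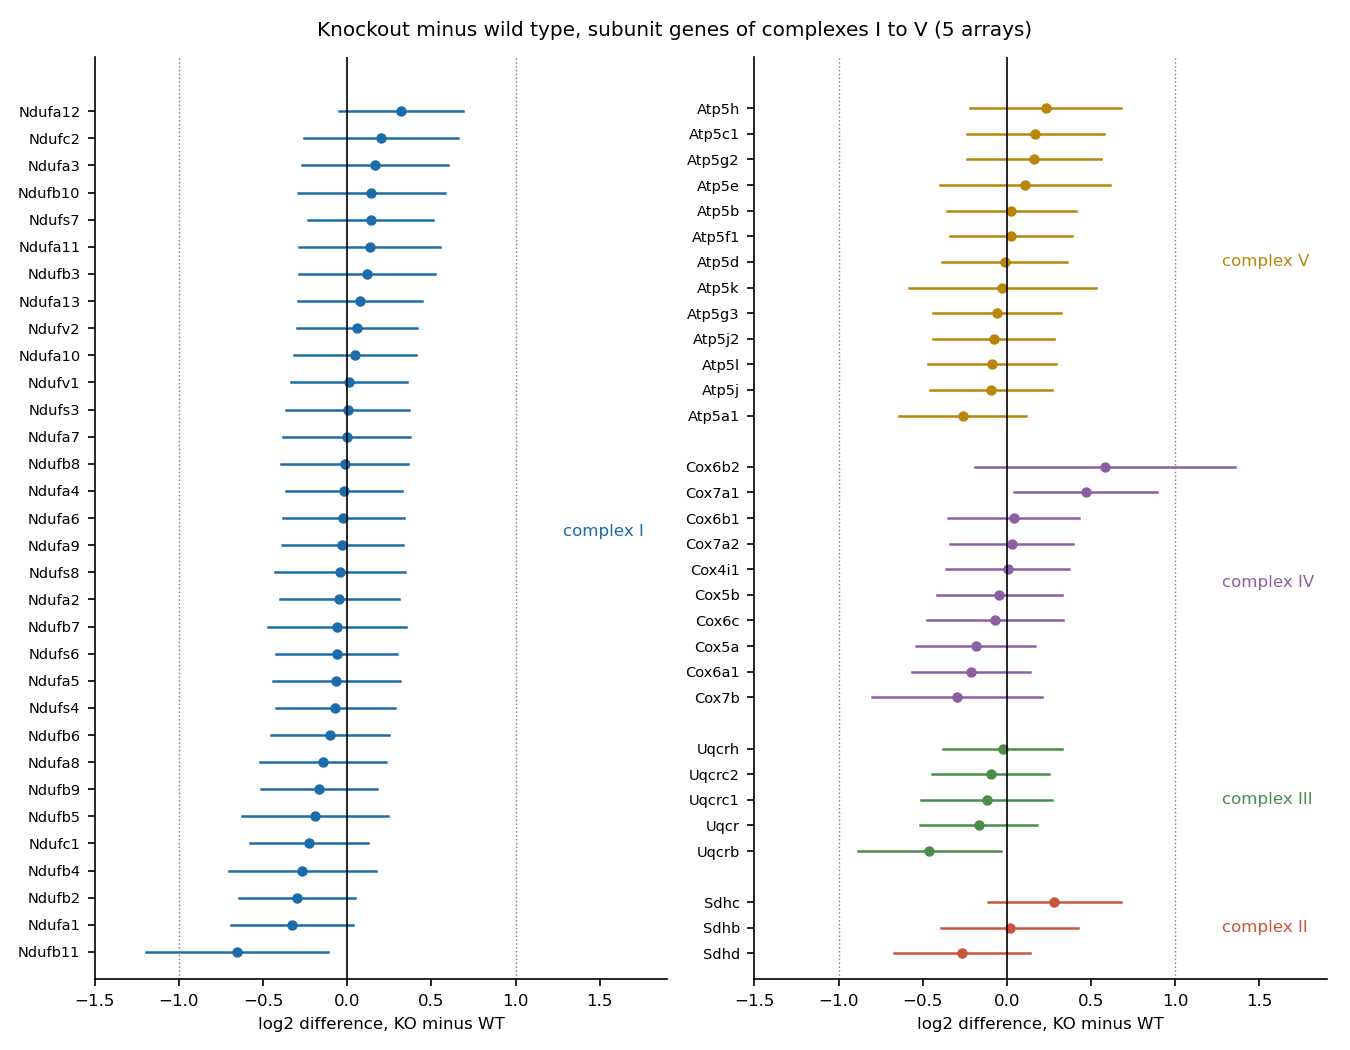
Log2 difference, knockout minus wild type over 5 arrays, of 63 of the 64 tested subunit genes, each with its 95% interval, grouped by complex, with dotted lines at a 2-fold change. All intervals drawn stay inside a 2-fold change except those of Ndufb11 and Cox6b2, and 0 genes passed limma's test.

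The median size of the differences was larger among the few dimly measured genes, and the part of brightness in this was not tested. For the 58 genes with a mean log2 signal of 7 or more they ran from -0.33 to 0.32, with a median size of 0.0839, and 0 had an unadjusted p under 0.05. For the 6 genes under 7 the median size was 0.464, though Atp5k differed by -0.03 and Ndufb4 by -0.27. Of these 6 genes, 3 had an unadjusted p under 0.05: Ndufb11, Uqcrb and Cox7a1. Among all tested genes 12.0% had an unadjusted p under 0.05, beside these 3 of 64.

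By complex the medians lay close to 0 under quantile normalization. The median log2 difference was -0.02 for complex I, 0.02 for complex II, -0.12 for complex III, -0.02 for complex IV and -0.01 for complex V, beside -0.01 for all tested genes and 0.03 for the top quartile by brightness. In complex I 12 genes lay above 0 and 21 below, in complex II 2 and 1, in complex IV 5 and 5, and in complex V 6 and 7. In complex III all 5 tested genes lay below 0. Scaling each array by its median moved the 5 medians, in the order I to V, to -0.74, -0.73, -0.80, -0.68 and -0.64, while the median of all probes moved to -0.42. Relative to that shift they were -0.31, -0.30, -0.37, -0.26 and -0.21, where relative to all probes the quantile-normalized medians were 0.010, 0.049, -0.086, 0.013 and 0.020. Cyclic loess turned the sign of complex II (-0.017), complex IV (0.021) and complex V (0.0020). All 6 arrays, quantile normalized, gave -0.05, -0.09, -0.28, -0.09 and -0.10, where all probes had a median of -0.28. That complex III lay below the median of all probes held with each scaling tried on the 5 arrays, and with all 6 arrays it lay at it (-0.0016).

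The 2 usable knockout livers did not shift alike. Set against the wild-type mean of each gene, knockout liver 1 was below it in 31 of 64 subunit genes (48.4%, against 56.2% of all tested genes). Knockout liver 2 was below it in 53 of 64 (82.8%, against 45.4%). The median deviation was 0.0062 for liver 1 and -0.067 for liver 2, where the wild-type livers had -0.040, 0.036 and -0.0052. Each wild-type liver is part of the mean it is set against, and the livers were not ranked. Both knockout livers lay on the same side of the wild-type mean in 34 of 64 genes. In complex III all 5 tested genes lay below the wild-type mean in both livers, with medians of -0.13 and -0.14. Over all subunits 27 of 64 genes (42.2%) lay below it in both, and over all tested genes 29.1%. The mitochondrially encoded complex III subunit mt-Cytb, outside the symbol rule, lay the other way, at 14.37, 14.42 and 14.49 in the wild type and 14.71 and 14.53 in the knockout. Groups that do not overlap, both knockout values above or both below the range of the 3 wild-type values, occurred in 18 of 64 genes, 4 higher and 14 lower. Among all tested genes this occurred in 29.3%, 14.0% higher and 15.3% lower.

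**Figure D3:**
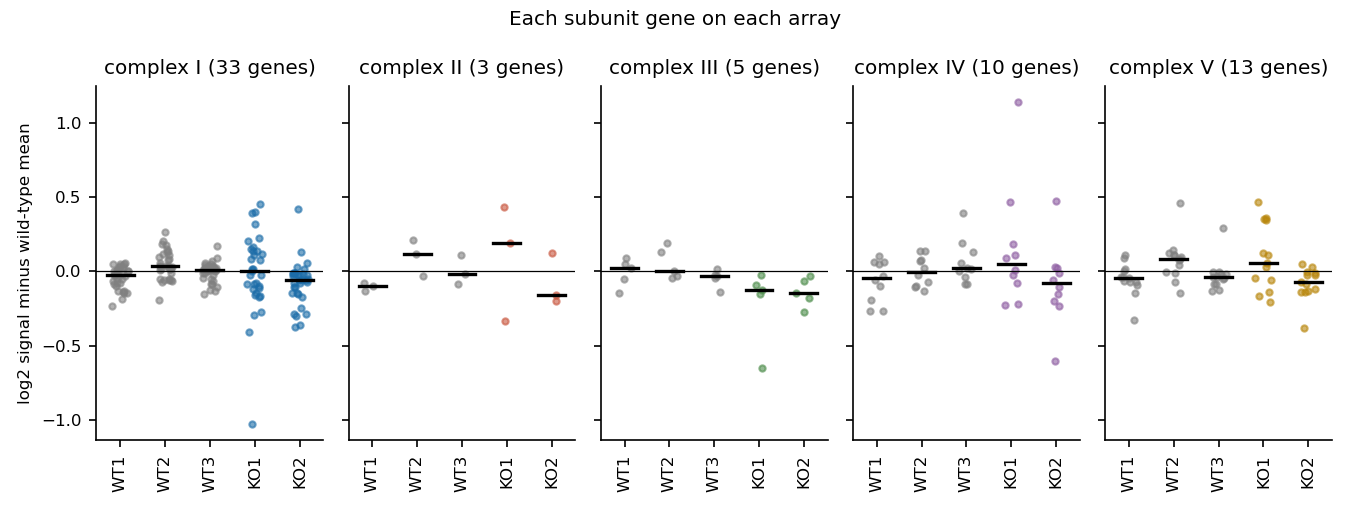
Deviation of each subunit gene from its own wild-type mean (log2) on each of the 5 arrays, by complex, with a black line at the median. Knockout liver 2 lies below 0 in 53 of 64 genes and knockout liver 1 in 31, while the 5 genes of complex III lie below 0 in both.

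Complex I, which oxidises NADH, had 33 of 34 genes tested and 0 called by limma. Several of its core subunits could be read. Ndufv1, the NADH-binding flavoprotein, had log2 signals of 10.77, 10.83 and 10.79 in the wild type and 10.80 and 10.81 in the knockout, a difference of 0.01 ± 0.15 (SE). Its neighbour in the NADH-oxidising arm, Ndufv2, differed by 0.06 ± 0.16, and the core subunits Ndufs3, Ndufs7 and Ndufs8 by 0.0016, 0.14 and -0.04. In Ndufs7 both knockout values (11.14 and 11.12) lay just above the wild-type range (10.86 to 11.11). The iron-sulfur subunit Ndufs1 was at background on all 6 arrays, with deposited signals of 79 to 99, and could not be tested. Ndufa4, first described with complex I and since assigned to complex IV, is kept with complex I in all counts and medians here. It was among the most even members, at 12.93, 12.97 and 12.96 against 12.93 and 12.93.

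Among the complex I genes taken by the symbol rule, the largest differences were in accessory subunits, which surround the core and serve assembly and stability. Ndufb11 had log2 signals of 5.81, 5.86 and 5.61 in the wild type and 4.73 and 5.48 in the knockout, a log2 difference of -0.65 ± 0.23 (SE, limma adjusted p = 0.362). Both knockout values lay below the wild-type range, but only knockout array 2 had it detected, so the value sits near background. Ndufa1 read 11.93, 11.81 and 11.88 against 11.46 and 11.63, a log2 difference of -0.33 ± 0.16 (adjusted p = 0.448) with no overlap between groups and far above background. Ndufa12 lay the other way, at 10.18, 10.11 and 10.25 against 10.40 and 10.60, a log2 difference of 0.32 ± 0.16 (adjusted p = 0.463), again without overlap. In all 6 arrays the difference was -0.86 for Ndufb11, -0.50 for Ndufa1 and 0.45 for Ndufa12. Ndufb2 read 7.60, 7.59 and 7.61 against 7.31 and 7.30, an even gap that all 6 arrays turned to 0.12. There knockout arrays 1 to 3 read 7.08, 7.08 and 8.33, against a wild-type mean of 7.37.

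Complex II, succinate dehydrogenase, is shared by the chain and the tricarboxylic acid cycle. Its flavoprotein Sdha could not be tested, because both of its probes stayed at background on every array (deposited signals 79 to 94). Sdhb, the iron-sulfur subunit, read 10.48, 10.70 and 10.56 in the wild type and 10.77 and 10.42 in the knockout, so the knockout livers lay on either side of the wild-type range (log2 difference 0.02 ± 0.18). The membrane anchors differed in sign. Sdhc read 9.61, 9.65 and 9.80 against 10.12 and 9.81, a difference of 0.28 ± 0.17 (limma adjusted p = 0.528), and Sdhd read 8.21, 8.56 and 8.26 against 8.01 and 8.14, one of -0.27 ± 0.17 (adjusted p = 0.557). In neither gene did the groups overlap, though Sdhc of knockout liver 2 lay within 0.02 of the wild-type range. Over all 6 arrays the difference was 0.46 for Sdhc and -1.43 for Sdhd, which was undetected on knockout array 3.

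Complex III, ubiquinol to cytochrome c reductase, had 5 of 7 genes tested, all with negative differences and 0 called. Uqcrb, a ubiquinone-binding subunit, read 6.11, 6.38 and 6.27 in the wild type and 5.60 and 5.98 in the knockout. The difference was -0.46 ± 0.18 with no overlap (limma adjusted p = 0.393), and -0.89 over all 6 arrays, with Uqcrb undetected on knockout array 3. Uqcr, now Uqcr11, read 12.37, 12.30 and 12.30 against 12.17 and 12.14, a tight gap of -0.17 ± 0.15 (adjusted p = 0.672). The core proteins Uqcrc1 and Uqcrc2 differed by -0.12 and -0.10, and the hinge protein Uqcrh by -0.03. Uqcrfs1 and Uqcrq had no probe detected on 3 of the 5 arrays.

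Complex IV, cytochrome c oxidase, had 10 of 15 genes tested and 0 called. Cox5a, a structural subunit, differed by -0.19 ± 0.15 with no overlap between groups, and Cox5b and Cox6c by -0.04 and -0.07. Cox7b read 7.61, 7.93 and 7.85 in the wild type and 7.81 and 7.20 in the knockout, a difference of -0.30 ± 0.22 carried by knockout liver 2 (limma adjusted p = 0.598). Without liver 2 the difference was 0.010, and with all 6 arrays -1.32, with Cox7b undetected on knockout array 3.

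Several complex IV subunits come in pairs, of which one form is widely expressed and the other restricted to tissues such as heart, skeletal muscle, lung or testis. Cox4i1 read 12.43, 12.22 and 12.33 against 12.30 and 12.36, a log2 difference of 0.0041 ± 0.16, while its hypoxia-responsive partner Cox4i2 was undetected on all 6 arrays. Cox6a1 read 12.33, 12.24 and 12.22 against 12.03 and 12.06, with both knockout values below the wild-type range, a difference of -0.21 ± 0.15 (limma adjusted p = 0.586), and its second probe gave -0.30. The muscle form Cox6a2 stayed near background and was not tested, and so did Cox8b and the testis form Cox8c. A Cox8a probe was not analysed here.

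Cox7b2, the partner of Cox7b, was undetected on all 6 arrays. In the Cox7a and Cox6b pairs both forms were measured. Cox7a2, the liver form, read 7.74, 7.71 and 7.60 against 7.80 and 7.63, a log2 difference of 0.03 ± 0.16. Cox7a1, the heart and muscle form, read 5.14, 5.49 and 5.60 against 5.87 and 5.88, without overlap, for a difference of 0.47 ± 0.18 (limma adjusted p = 0.393). Over all 6 arrays Cox7a2 differed by -0.41 and Cox7a1 by 0.76, both undetected on knockout array 3. Before normalization its deposited signals were 115, 118 and 122 against 110 and 147, so in the dim knockout array 1 the deposited value was below the wild-type range and the normalized one above it. Of 8 muscle markers, Myh7 alone was detected well enough to test, with a log2 difference of -0.0097. Cox6b1 read 11.98, 12.15 and 12.11 against 12.27 and 11.98, a difference of 0.04 ± 0.17, and its second probe gave -0.13. The testis form Cox6b2 read 4.44, 4.58 and 5.10 against 5.84 and 4.73, for a difference of 0.58 ± 0.34 (adjusted p = 0.507) with signals near background. Without knockout liver 1 it was 0.029, and over all 6 arrays 0.96, with Cox6b2 undetected on knockout array 3.

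**Figure D4:**
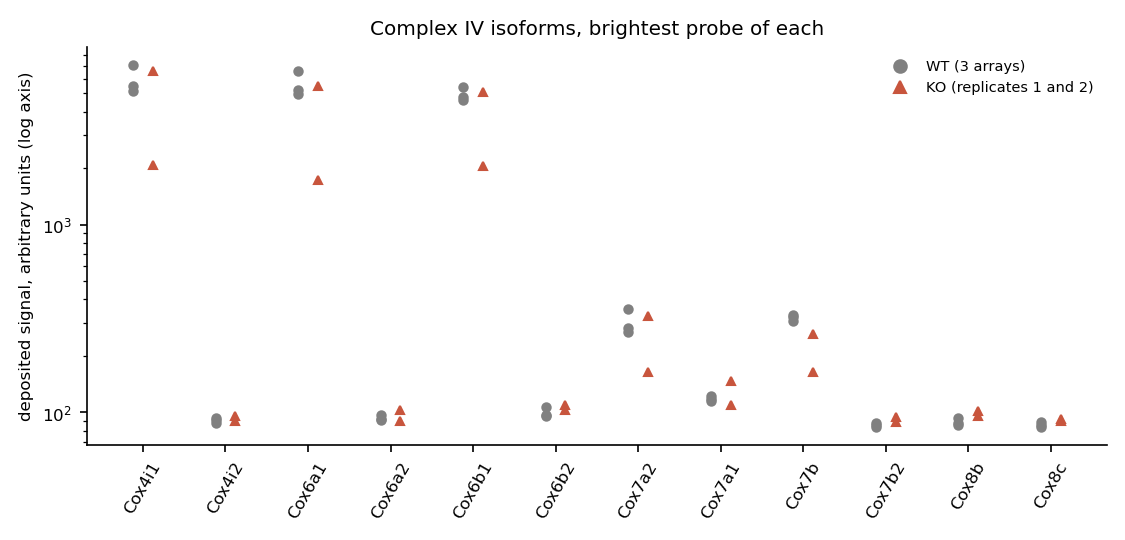
Deposited signal (arbitrary units, log axis) of the complex IV isoform genes, brightest probe of each, with 1 point for each of 3 wild-type arrays (circles) and knockout arrays 1 and 2 (triangles), before normalization. Cox4i2, Cox6a2, Cox7b2, Cox8b and Cox8c stay near background, Cox7a1 lies just above it (110 to 147), and the lower triangle of the brighter genes is the dim knockout array 1; levels of different genes are not compared.

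Complex V, the ATP synthase, had all 13 genes tested and 0 called. In its catalytic head, the beta subunit Atp5b read 13.06, 13.26 and 13.03 in the wild type and 13.24 and 13.05 in the knockout, a log2 difference of 0.03 ± 0.17. The alpha subunit Atp5a1 read 10.44, 10.60 and 10.50 against 10.38 and 10.13, both below the wild-type range, a difference of -0.26 ± 0.16 (limma adjusted p = 0.539). The gamma subunit Atp5c1, the rotating shaft, read 12.00, 12.12 and 12.00 against 12.40 and 12.02, a difference of 0.17 ± 0.18. For the peripheral stalk, Atp5h read 10.59, 10.71 and 10.46 against 11.05 and 10.58, a difference of 0.23 ± 0.19, and Atp5j 11.94, 12.13 and 11.97 against 11.96 and 11.88, one of -0.10 ± 0.16. In Atp5c1 and Atp5h knockout liver 1 was high and liver 2 lay inside the wild-type range. The genes Atp5g2 and Atp5g3, which encode the membrane ring subunit, differed by 0.16 and -0.06. Atp5a1 differed by -0.10 over all 6 arrays.

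Different probes of a gene did not always point the same way. Over 1 tested probe was available for 20 of the 76 gene symbols, and in 9 of them the probes had opposite signs. The median range between probes of a gene was 0.165 on the log2 scale, over symbols that include Cox4nb and Cox7a2l. A range over several probes is not the same measure as the size of the brightest probe's difference (median 0.0959 over the subunit genes). Ndufc2, an accessory subunit of complex I, gave the widest example. Its bright probe read 9.82, 10.08 and 9.99 against 10.42 and 9.91, a difference of 0.20 ± 0.20, and its dim probe read 5.36, 6.01 and 5.59 against 4.32 and 5.08, one of -0.95 ± 0.28 (limma adjusted p = 0.278). The dim probe was detected on 1 of 2 knockout arrays.

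Atp5f1, now Atp5pb, the b subunit of the ATP synthase stalk, showed the same split. Its bright probe read 10.40, 10.60 and 10.47 against 10.54 and 10.49, a difference of 0.03 ± 0.16, and a second bright probe gave 0.07. Its dim probes gave -0.39 ± 0.16 and -0.48 ± 0.18 (limma adjusted p = 0.393 and 0.386). The last of these was not well above background on either knockout array. With the lowest detected signal taken as its knockout level, it would be 1.16-fold lower. That value carries no error and is not a minimum decrease. The interval of its log2 difference ran from -0.91 to -0.05, and limma did not call the probe. For Ndufs4, an accessory subunit of the matrix arm, the brightest probe gave -0.07 and the other 3 gave 0.13 to 0.19. Ndufb6, an accessory subunit of the membrane arm, gave -0.10 and 0.03, and Atp5l, of the membrane part of the synthase, -0.09 and 0.08. Outside the subunits, Cox7a2l gave -0.03 and 0.23 and Cox4nb 0.15 and -0.06.

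The parts of the chain encoded in mitochondrial DNA, and nuclear subunits outside the symbol rule, were read as a separate list of 23, of which 17 were tested and 0 called by limma. Their median log2 difference was 0.0040, with 10 above 0 and 7 below, and over all 6 arrays -0.07, with 8 above and 10 below. The mitochondrial gene mt-Nd4l, a membrane subunit of complex I, was the one at an unadjusted p under 0.05. It read 10.56, 10.53 and 10.74 in the wild type and 9.32 and 9.89 in the knockout, a difference of -1.004 ± 0.205 (limma adjusted p = 0.139). Its adjusted p came under 0.05 in 4 other settings, among them cyclic loess (0.0481) and the comparison with knockout array 1 alone (0.00782), and over all 6 arrays the difference was -2.66, with the probe undetected on knockout array 3. Other mitochondrial genes did not share that value, mt-Nd1 being at 0.07, mt-Nd4 at 0.05, mt-Co2 at 0.16, mt-Cytb at 0.20 and mt-Nd6 at 0.28. Among nuclear genes, Ndufab1, the mitochondrial acyl carrier protein that is part of complex I, differed by -0.49, Usmg5, now Atp5md, by -0.29, and Atpif1, the ATP synthase inhibitor, by 0.23. Over all 6 arrays these were -0.45, -1.01 and -0.31. Each rested largely on 1 knockout liver: Ndufab1 came to -0.048 without liver 1, Usmg5 to -0.019 without liver 2 and Atpif1 to 0.047 without liver 2. Ndufv3 of complex I and Uqcr10 of complex III, which the array carries under clone names, differed by -0.09 and -0.05.

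Assembly factors, which build the complexes without remaining in them, were tested for 39 of 48 genes with 0 called and 0 at an unadjusted p under 0.05. Their median was 0.03, with 23 above 0 and 16 below. Over all 6 arrays this turned to -0.26, with 13 above and 26 below. All tested genes likewise went from a median of -0.01 with 47.8% above 0 to one of -0.25 with 29.8% above 0. Among the assembly factors the smallest p belonged to Ecsit, Timmdc1 and Ndufaf3 of complex I assembly, with log2 differences of 0.34, 0.34 and -0.33. Next was Surf1 of complex IV assembly, at 0.34, which came to -0.0050 without knockout liver 1. Over all 6 arrays Ecsit turned to -0.78 and Timmdc1 to -0.61, both undetected on knockout array 3.

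Among 20 regulators of nuclear respiratory genes and mitochondrial DNA transcription, 18 were tested, 4 above 0 and 14 below, with a median of -0.23. Over all 6 arrays the counts were 4 and 14, with a median of -0.59. All tested genes had a median of -0.01 with 47.8% above 0, and over all 6 arrays -0.25 with 29.8%. On knockout array 3 the median deviation was -1.26 for the regulators and -0.66 for all tested genes. Among the 18 regulators 1 was called, where 0.342% of all tested probes were. Ppara, the nuclear receptor that drives fatty acid oxidation in fasting, fell by 1.24 on the log2 scale (SE 0.17, limma adjusted p = 0.0345). It was detected on 1 of 2 knockout arrays, and its adjusted p rose above 0.05 in 13 of 16 other settings, among them all 6 arrays (0.653). The log2 difference was -1.25 with all 6 arrays but -0.42 with no background correction and -0.37 in the authors' deposited value table. Of the genes that did not pass, Pprc1, a coactivator related to PGC-1, differed by 0.62, the mitochondrial transcription factor Tfb2m by -0.46 and Mterf4 by -0.35. Over all 6 arrays these were 0.039, -1.20 and -0.48. Tfb2m came to -0.22 without knockout liver 1.

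In the tricarboxylic acid cycle, which supplies the chain, 13 of 14 genes were tested, 6 above 0 and 7 below, with a median of -0.02 and 0 called, and over all 6 arrays 4 above and 9 below, with a median of -0.11. Suclg1, of succinyl-CoA ligase, differed by -0.52 ± 0.15 (limma adjusted p = 0.278) and Idh3a, of isocitrate dehydrogenase, by -0.85. Idh3a came to -0.45 without knockout liver 1 and to -0.16 over all 6 arrays. Mdh2, malate dehydrogenase, and Fh1, fumarase, differed by 0.18 and 0.21. The value of Suclg1 passed the test with no background correction (adjusted p = 0.0406) and in the authors' deposited value table (0.0333). The mitochondrial ribosome translates the mitochondrial genes. Of its 76 genes 70 were tested, 45 above 0 and 25 below, with a median of 0.09 and 0 called. Over all 6 arrays this turned to 18 above, 52 below and a median of -0.35. All tested genes there had a median of -0.25 with 29.8% above 0. The smallest p of the ribosomal genes were those of Mrpl35 at -0.48, Mrpl23 at 0.37, Mrps25 at 0.64 and Mrpl52 at 0.32. Mrps25 came to 0.096 without knockout liver 1, and over all 6 arrays Mrpl35 came to -0.080 and Mrps25 to 0.18.

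Markers of other liver cells were read beside these values. Of 8 Kupffer cell markers 7 were tested, all 7 above 0 with a median of 0.40 and 0 called, which turned over all 6 arrays to 3 above, 4 below and a median of -0.14. Of 8 endothelial markers 7 were tested, 5 above 0 and 2 below, with a median of 0.18 that turned to -0.37 over all 6 arrays. All tested genes had medians of -0.01 and -0.25. Of 8 stellate cell markers 4 were tested over 5 arrays (median 0.12), of 6 cholangiocyte markers 2 (0.27) and of 6 lymphocyte markers 2 (0.25). Over all 6 arrays these medians were 0.012, -0.77 and 0.061. Of 5 adipocyte markers 0 were tested. Of 6 erythroid markers 4 were tested, with medians of -0.36 over 5 arrays and -0.31 over all 6. Their median deviation from the wild-type mean was -0.74 in knockout liver 1 and 0.021 in liver 2. With all 6 arrays it was 0.12 in liver 3, so the negative medians rested on liver 1. Fewer cells of a type and less RNA per cell cannot be told apart in whole liver, and the part of these markers in the values of the subunits was not tested.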

How the data were processed

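Liver RNA of 3 wild-type and 3 Creb3l3 knockout mice was read on Illumina bead arrays. Per array, the deposited tables give an intensity per probe, by its values neither normalized nor background-subtracted, and a detection p-value, both from the authors' software (BeadStudio 3, per the submitters' processing notes). The deposited value table of the series, linear intensities that matched quantile-normalized signals, served as an alternative. Set against the array tables, it swaps the columns for wild-type replicates 2 and 3.

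Intensities were processed with limma 3.58.1 (R 4.3.3) by neqc, offset 16: normexp with negative controls inferred from detection p, quantile normalization and log2. A probe was tested if its detection p was under 0.05 on 3 or more arrays, with lmFit and eBayes, genotype as the only term, two-sided, with Benjamini-Hochberg adjustment over all kept probes. The number of arrays limits the precision. A gene is its tested probe with the highest mean, and its 95% interval uses the moderated variance. Knockout array 3 was left out of the 5-array fit. Each mouse gave 1 array. The steps were tested on simulated data.

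Members and the 5 pathway and 9 marker lists were chosen with earlier results of these data known. Named were, per complex, called genes and the 2 largest differences each way, all of complex II, isoform pairs, genes with probes of opposite sign, up to 4 genes of smallest p per pathway list, and Creb3l3. Further genes named for their role were chosen after their values were seen. One gene that the rule takes is counted but not reported here. Symbols are those of the array; 27740 probes carried a current symbol in RefSeq's GRCm38.p6 table, 8037 a synonym and 9504 neither. Replicate numbers were not taken as pairs. Correlations of same-numbered deviations were -0.13 and -0.13 for 5 arrays. With 2 knockout arrays the deviations from their mean mirror each other, so these values cannot decide whether the samples were paired. Figures were drawn with matplotlib 3.10.9.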

Additional observations from a re-analysis of the deposited data

How the results depend on the processing

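Member probes called numbered 0 under every other setting of the 5 arrays that kept all of them, and 0 to 5 with 1 mouse left out, the 5 without knockout replicate 2. With all 6 arrays they numbered 6 with array weights, 2 higher and 4 lower, when 1030 probes in all were called higher and 1802 lower, and 0 in the other settings, leaving out mice included. Median scaling moved the complex medians to -0.736 (I), -0.726 (II), -0.795 (III), -0.684 (IV) and -0.639 (V), and left 0 intervals inside 2-fold, where the other 5-array settings left 60 to 64 of 64, 69 of 73 with no filter and 62 of 62 with probes detected on every array. Complex III came to -0.0907 with array weights and to -0.280 with all 6 arrays. Complex IV came to 0.0214 with cyclic loess, 0.0281 with no filter, -0.0582 with the mean of a gene's probes and -0.0934 with all 6 arrays, and complex V to -0.0987 with all 6 arrays. Leaving out 1 mouse gave -0.0573 to 0.00315 for complex I, -0.159 to 0.197 for complex II, -0.176 to -0.0934 for complex III, -0.0800 to 0.0501 for complex IV and -0.0655 to 0.0564 for complex V.

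The replicate numbers were not taken to pair the samples. With the replicate block 0 member probes were called, as without it, and complex III came to -0.179. With wild-type replicates 2 and 3 exchanged in the block, a setting chosen after seeing the data, 0 were called and complex III came to -0.0934. The count of intervals inside 2-fold was also chosen after seeing the data.

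Of the values of single genes under other settings, 743 of 826 kept direction and call and 52 turned sign. Median scaling gave Ndufc2 -0.555, Ndufa12 -0.422, Sdhb -0.726, Sdhc -0.448, Atp5c1 -0.504, Atp5h -0.497, Cox4i1 -0.679, Cox6b1 -0.639, Cox7a2 -0.615, Atp5f1 -0.711, Cox4nb -0.401, Ecsit -0.330, Timmdc1 -0.280, Surf1 -0.289, Atpif1 -0.459, Mdh2 -0.539, Fh1 -0.499, Mrpl23 -0.381 and Mrpl52 -0.418. All 6 arrays gave Sdhb -0.0912, Cox4i1 -0.0506, Cox7a2 -0.405, Atp5f1 -0.0223, Ecsit -0.780, Timmdc1 -0.607, Atpif1 -0.309 and Ndufv3 0.0420. Cox7a2, Ecsit and Timmdc1 were undetected on knockout array 3. Cyclic loess gave Sdhb -0.0170 and Atp5f1 -0.00244. Array weights gave Cox4i1 -0.00429. The replicate block gave Cox7a2 -0.0135. The exchanged block gave Cox4i1 -0.0482 and Uqcr10 0.0259. Leaving out 1 mouse at a time, the lowest and highest values were -0.0522 to 0.458 for Ndufc2, -0.159 to 0.197 for Sdhb, -0.608 to 0.0100 for Cox7b, -0.0247 to 0.366 for Atp5c1, -0.00782 to 0.474 for Atp5h, -0.0466 to 0.0557 for Cox4i1, -0.103 to 0.199 for Cox6b1, -0.0572 to 0.116 for Cox7a2, -0.209 to 0.0275 for Atp5l, -0.0233 to 0.0816 for Atp5f1, -0.00497 to 0.684 for Surf1, -0.208 to 0.0364 for Ndufv3 and -0.230 to 0.114 for Uqcr10. The causes were not tested, except that leaving out mice leaves fewer samples. Limits are the signal of knockout array 3, close to background, the dim knockout array 1, the choice of scaling, which moved bright genes as well (Cox4i1 from 0.0041 to -0.679), and the number of arrays.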
